A study of Mus musculus with 6 samples.

Results

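RNA sequencing levels of the Notch receptors, their ligands and their HES and HEY target genes are described here in mouse 3T3-F442A cells. Members were taken by symbol: a row of the deposited table belonged to the set when its gene name, split at commas, held 1 of 10 symbols (Notch1, Notch2, Notch3, Notch4, Jag1, Jag2, Dll1, Hes1, Hey1 or Heyl). Of these 10 genes, 9 had a row among the 31097 rows of the table, and each of the 9 rows carried 1 gene name only. Jag2 was not analysed here. The 3T3-F442A line consists of mouse preadipocytes, cells able to become adipocytes, and the labels call it an adipocyte cell line. The wild-type (WT) group had 3 libraries of the parental line with intact SWELL1. The SWELL1 KO group had 3 libraries of the same line after CRISPR/Cas9 targeting of SWELL1, the gene also called Lrrc8a, whose product is part of an anion channel that opens when cells swell. Cells of both groups were cultured in RPMI with 10% FBS. The labels name the libraries biological replicates but leave out the number of KO clones and whether cells were differentiated. The sample names of the KO libraries alone carry the mark D3, which no label explains. The genotype, the clone and that mark cannot be told apart, and the p-values measure only the spread between these libraries.

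Notch receptors are single-pass membrane proteins that bind ligands of the Delta-like (Dll) and Jagged (Jag) families on neighbouring cells. Binding lets the protease ADAM10 and then the gamma-secretase complex cut the receptor, and the freed intracellular part enters the nucleus, joins the DNA-binding protein RBPJ and a Mastermind co-activator, and raises transcription of HES and HEY genes, which encode basic helix-loop-helix repressors. In the mesenchymal lineage the pathway is known to bear on the choice between progenitor state and differentiation, and Dlk1, a non-canonical ligand also called Pref-1, is a well-known inhibitor of fat cell formation.

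Levels are given in FPKM, fragments scaled by transcript length in kilobases and by the number of fragments mapped, so that levels of different genes can be set side by side. Depth, estimated from the value that 1 fragment is worth in long genes, was about 17100000 to 20800000 fragments in WT and 18400000 to 25900000 fragments in KO libraries. Between 13005 and 14245 rows were above 0 in a library. The row that holds Lrrc8a also holds Nup188 and Phyhd1, so it does not check the knockout labels. Its 3 WT libraries held 32.5, 35.0 and 33.2 FPKM, against 28.8, 28.05 and 27.3 FPKM for the KO libraries (limma log2 fold change -0.26, SE 0.04, adjusted p = 0.00322). An exact 0 in the table can be a failed estimate: 8117 rows reached 5 FPKM somewhere, and for 231 of them a replicate of such a library was at 0.

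The bases before the start sites of Notch2, Notch3 and Jag1 are shown because these 3 genes were the most abundant members in WT cells and moved in opposite directions in KO cells. The sequences are RefSeq's for GRCm38.p6, written 5′ to 3′ on the gene's own strand, and end where the gene begins in RefSeq or in GENCODE M21, whichever comes first. Capitals mark the word CACGNG, searched on both strands, which the HES and HEY repressors are known to bind. The Notch2 stretch is chr3:98013288-98013526 (plus strand, 239 bases), the Notch3 stretch chr17:32166891-32167140 (minus strand, 250 bases) and the Jag1 stretch chr2:137116645-137116770 (minus strand, 126 bases).
Notch2: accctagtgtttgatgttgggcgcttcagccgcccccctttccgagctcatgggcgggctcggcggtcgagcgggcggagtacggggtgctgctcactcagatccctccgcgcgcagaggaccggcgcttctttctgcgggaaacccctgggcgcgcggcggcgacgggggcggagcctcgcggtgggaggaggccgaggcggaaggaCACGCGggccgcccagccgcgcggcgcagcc
Notch3: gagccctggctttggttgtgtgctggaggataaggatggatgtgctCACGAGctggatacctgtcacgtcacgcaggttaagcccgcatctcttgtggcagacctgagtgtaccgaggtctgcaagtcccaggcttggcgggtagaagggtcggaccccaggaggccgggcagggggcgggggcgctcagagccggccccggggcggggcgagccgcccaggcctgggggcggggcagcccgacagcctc
Jag1: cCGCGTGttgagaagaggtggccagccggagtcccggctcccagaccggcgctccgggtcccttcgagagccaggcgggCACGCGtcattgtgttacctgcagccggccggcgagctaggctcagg
Of the 10 members, 7 had at least 1 window in the RefSeq promoter table. Windows of 250 bases before the RefSeq start were searched. The windows of Notch1 and Jag2 and 1 of the 2 Dll1 windows lie wholly inside the gene as GENCODE M21 places it. They therefore do not show the bases before that start. Those of Notch2, Notch4 and Jag1 reach into the gene in part. CACGNG occurred in the windows of Notch2 (1 match), Notch3 (1), Jag1 (2) and Dll1 (2, over 2 windows), and not in those of Notch1, Notch4 and Jag2. It was found in 23.5% of all 32851 windows of that length. GC content was 72.0% in the Notch2 window, 68.8% in that of Notch3 and 57.2% in that of Jag1, against a median of 52.4% over all windows. The RBPJ word GTGGGAA, and the shorter TGGGAA that lies inside it, were found on neither strand in any window of these 7 genes. They occurred in 5.42% and 21.6% of all windows. These matches are descriptions of the letters in the window and say nothing of binding.

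The receptors changed in opposite directions: Notch1, Notch2 and Notch4 rose in KO cells and Notch3 fell. All 4 receptor genes had an adjusted p under 0.05, and in each of them the WT and KO libraries did not overlap. The background is high: of the 10515 rows tested, 65.2% were called at that threshold, made up of 28.5% with higher and 36.7% with lower levels in KO, and the groups did not overlap in 71.8%. A log2 fold change is the KO mean minus the WT mean of log2(FPKM + 0.5), from limma with Benjamini-Hochberg adjustment over all tested rows, with n = 3 libraries per group. In bulk RNA, fewer cells of a type and less RNA per cell cannot be told apart.

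Notch3, a receptor known best from vascular smooth muscle and pericytes, lies on chromosome 17 from 32120820 to 32166852 (GRCm38, minus strand). Its level was 2.45, 2.86 and 2.44 FPKM in WT replicates 1, 2 and 3 and 0.299, 0.409 and 0.407 FPKM in KO replicates 1, 2 and 3. Every KO library was thus far below every WT library. Mean Notch3 fell 6.94-fold, from 2.58 ± 0.24 to 0.372 ± 0.063 FPKM (SD, n = 3; log2 fold change -1.82, SE 0.11, limma adjusted p = 4.4e-05). Notch3 passed the filter of a mean of 0.5 FPKM only through the WT libraries. With no filter on low values its limma adjusted p was 8.57e-05. At the estimated depths, and with a spliced transcript of 8016 bases, the KO values rest on about 46 to 85 fragments per library and the WT values on about 337 to 438. On the tested log2 scale 6.05% of rows changed by more than Notch3. Genes on the opposite strand overlap Notch3 (Gm17276), Notch1 (0610009E02Rik and Gm13568), Notch4 (Gm20462) and Dll1 (A930024N18Rik). No source used here states whether strand was kept, so reads of each pair may be mixed. The shared row of 0610009E02Rik and Gm13568 and the row of Gm20462 were listed at 0 in all 6 libraries.

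Notch2, a broadly expressed receptor, was the most abundant of the 4 in every library. It lies on chromosome 3 from 98013527 to 98150361 (plus strand). Notch2 stood at 4.98, 4.93 and 4.35 FPKM in WT cells and at 11.2, 10.1 and 10.1 FPKM in KO. The lowest KO library was above the highest WT library by a wide margin against the spread within either group, and the mean rose 2.21-fold (4.75 ± 0.35 to 10.48 ± 0.58 FPKM; log2 fold change 1.06, SE 0.07, limma adjusted p = 6.67e-05). Notch1, a receptor with roles in many cell fate choices (chromosome 2, 26457903 to 26516663, minus strand), stood at 0.970, 0.870 and 0.934 FPKM in WT cells and at 2.57, 2.23 and 2.22 FPKM in KO. Its mean rose 2.53-fold, slightly more than that of Notch2 as a ratio of FPKM, although the log2 fold change with the pseudocount was 0.99 (SE 0.09, limma adjusted p = 0.000221).

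Notch4, a receptor known mainly from endothelium (chromosome 17, 34564268 to 34588503, plus strand), was the least abundant receptor in WT cells. It stood at 0.412, 0.0697 and 0.133 FPKM in WT cells and at 1.07, 1.06 and 0.938 FPKM in KO. WT replicate 1 was well above the other WT libraries but below all KO libraries. Notch4 rose by a log2 fold change of 1.14 (SE 0.21, limma adjusted p = 0.00371), and without WT replicate 1 the log2 fold change was 1.34 (limma adjusted p = 0.00123). The WT values rest on about 9 to 46 fragments per library and the KO values on about 114 to 181. Notch4 passed the filter of a mean of 0.5 FPKM only through the KO libraries: its mean was 0.205 FPKM in WT and 1.02 in KO. With no filter on low values its limma adjusted p was 0.00433. In KO cells Notch4 stood above Notch3, the reverse of their order in WT cells.

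**Figure D1:**
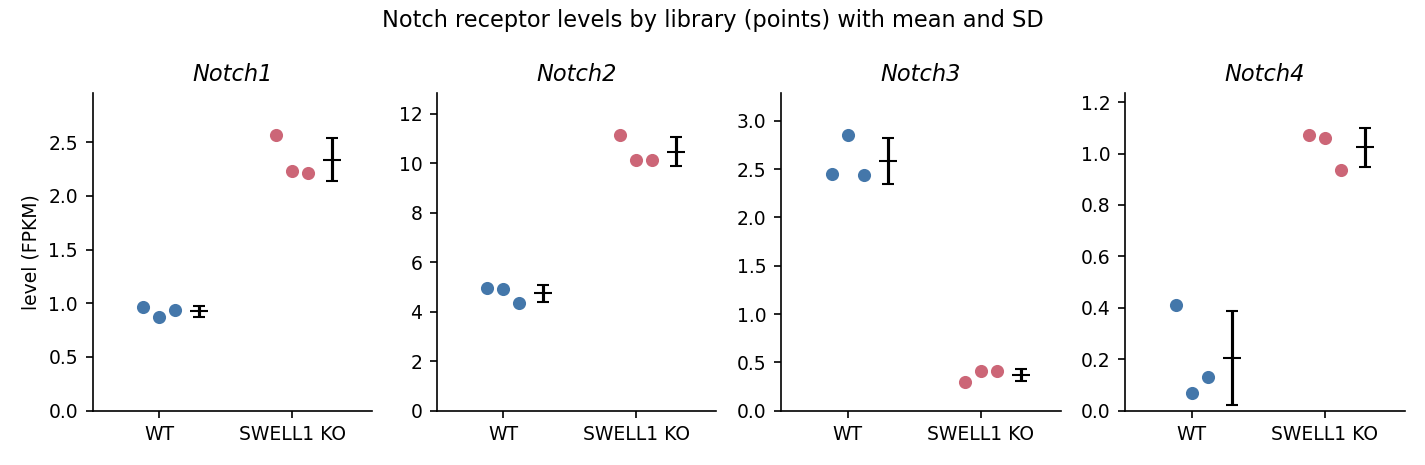
Levels of the 4 Notch receptor genes in FPKM (vertical axes, linear from 0, a separate scale for each gene) in WT and SWELL1 KO cells. Points are libraries, the bar beside them is the mean ± SD over 3 libraries; Notch3 falls from 2.58 to 0.372 FPKM on average while Notch1, Notch2 and Notch4 rise, with no overlap of groups in any panel.

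The make-up of the receptor mRNA shifted accordingly. The sum of the 4 receptors was 8.81, 8.72 and 7.86 FPKM in WT and 15.1, 13.8 and 13.7 FPKM in KO. The summed receptor level was therefore higher in each KO library than in any WT library, although Notch3 was lower. Notch3 held 27.8%, 32.7% and 31.1% of that sum in WT and 1.98%, 2.96% and 2.97% in KO. Notch2 held 56.5%, 56.5% and 55.4% in WT and 73.9%, 73.3% and 74.0% in KO. These shares, which 1 scaling factor per library leaves as they are, placed Notch3 second among the receptors in WT cells and last in KO cells. Notch1 held 11.0 ± 0.96% in WT and 16.4 ± 0.51% in KO, and Notch4 held 2.39 ± 2.03% and 7.21 ± 0.42% (SD, n = 3). The ratio of Notch2 to Notch3 was 2.03, 1.73 and 1.78 in WT and 37.3, 24.8 and 24.9 in KO. The shares are descriptions of the chosen members and were not tested.

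**Figure D2:**
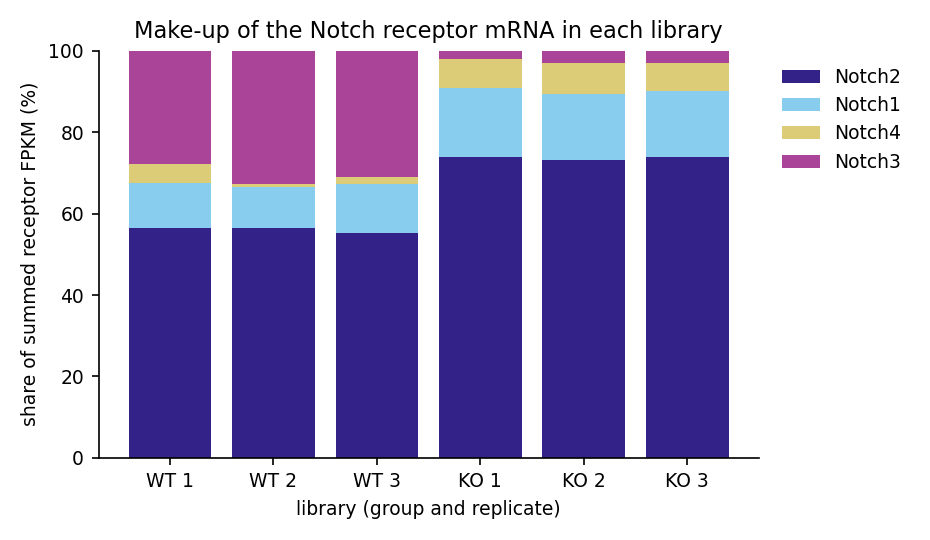
Share of the summed FPKM of Notch1 to Notch4 held by each receptor (vertical axis, percent) in each of the 6 libraries (horizontal axis, group and replicate). Notch3 holds 27.8% to 32.7% in the WT libraries and 1.98% to 2.97% in the KO libraries, and Notch2 holds the largest share in all 6.

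Jag1, which encodes a Jagged ligand (chromosome 2, 137081456 to 137116644, minus strand), had the highest level among the canonical ligands with a row (Jag1, Dll1, Dll3 and Dll4) in both groups. Its level was 8.63, 9.14 and 8.06 FPKM in WT and 2.72, 2.49 and 2.60 FPKM in KO. All KO libraries lay below all WT libraries. Mean Jag1 fell 3.31-fold (8.61 ± 0.54 to 2.60 ± 0.11 FPKM; log2 fold change -1.55, SE 0.07, limma adjusted p = 1.41e-05). Per length, Jag1 mRNA stood at 0.980, 1.05 and 1.03 times the summed receptor mRNA in WT and at 0.180, 0.180 and 0.189 times in KO. The WT libraries thus held about as much Jag1 as receptor mRNA, and the KO libraries far less.

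Dll1, a Delta-like ligand (chromosome 17, 15367354 to 15376872, minus strand), was low in both groups and fell under the filter of a mean of 0.5 FPKM. It stood at 0.309, 0.0884 and 0 FPKM in WT cells and at 0.261, 0.337 and 0.623 FPKM in KO, and the groups overlapped. With no filter on low values the limma adjusted p was 0.121. The KO values rest on about 18 to 41 fragments per library. Of the other Delta-like ligand genes of the pathway list, Dll4 did not exceed 0.197 FPKM in any library, and Dll3 was listed at 0 in all 6.

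Among the target genes, Hes1 did not pass the threshold. It encodes the repressor most often used to read out Notch activity and lies on chromosome 16 from 30064384 to 30067796 (plus strand). Hes1 stood at 0.553, 0.729 and 0.598 FPKM in WT cells and at 0.574, 0.311 and 0.360 FPKM in KO. KO replicate 1 lay within the range of the WT libraries, and the others lay below it. The log2 fold change was -0.31 (SE 0.16, 95% interval -0.70 to 0.09, limma adjusted p = 0.14). That interval covers both a moderate decrease and no change. The mean over the 6 libraries, 0.521 FPKM, was just above the filter, and the values rest on about 10 to 20 fragments per library.

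Hey1, a HES-related repressor (chromosome 3, 8663359 to 8667256, minus strand), stood at 0.299, 0.269 and 0.292 FPKM in WT and was listed at 0 in all 3 KO libraries. It was under the filter, so it was not tested in the fit reported here, and no fold change is given. With no filter on low values the limma adjusted p was 5.09e-05. The 3 KO values of 0 have no spread, and an exact 0 can be a failed estimate, so that p-value decides nothing. The WT values rest on about 12 to 15 fragments per library. Heyl, its close relative (chromosome 4, 123233556 to 123249875, plus strand), was listed at 0 in all 6 libraries.

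**Figure D3:**
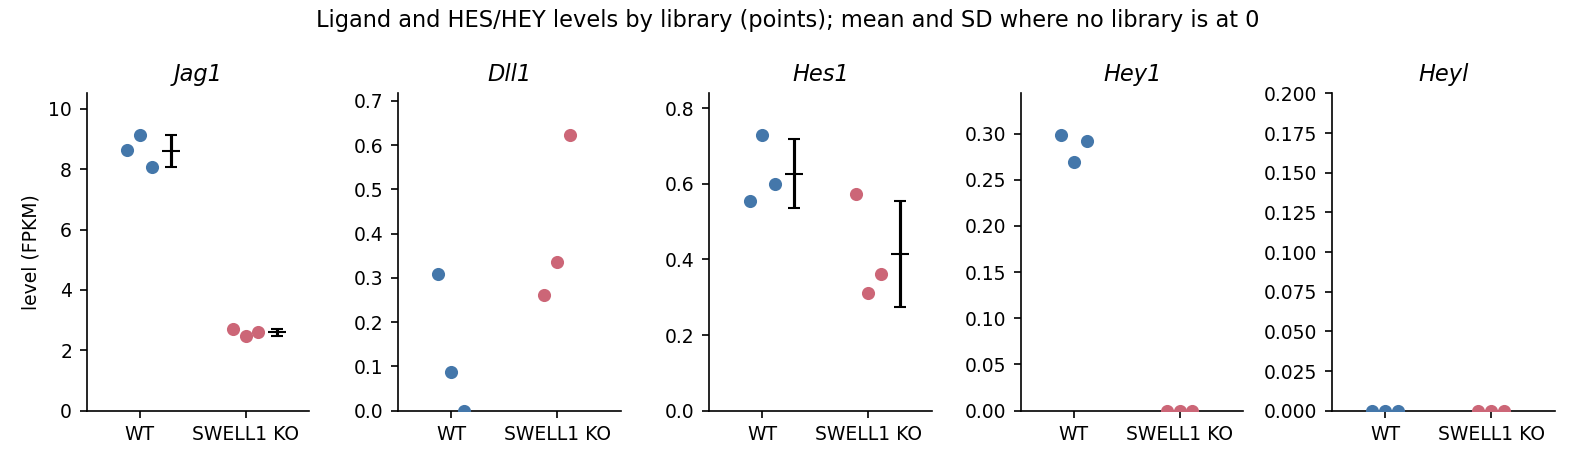
Levels in FPKM (vertical axes, linear from 0, a separate scale for each gene) of the ligands Jag1 and Dll1 and the targets Hes1, Hey1 and Heyl in WT and SWELL1 KO cells, with points for libraries and, for Jag1 and Hes1, the mean ± SD over 3 libraries. Jag1 falls from 8.61 to 2.60 FPKM, the groups overlap for Dll1 and Hes1, Hey1 is at 0 in the KO libraries, and Heyl is at 0 throughout.

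Ordered by mean FPKM in WT cells, the 9 members ran Jag1, Notch2, Notch3, Notch1, Hes1, Hey1, Notch4, Dll1 and Heyl. Each of the first 5 was separated from the next by ranges that did not overlap, while Hey1, Notch4 and Dll1 overlapped their neighbours. In KO cells the order was Notch2, Jag1, Notch1, Notch4, Hes1, Dll1 and Notch3, with Hey1 and Heyl at 0. There Jag1 and Notch1 overlapped, as did Hes1 with Dll1 and Dll1 with Notch3. Notch3 went from the third place to the seventh, and Notch4 from the seventh to the fourth. In all, 6 of the 9 members with a row passed the filter on low values, and 5 of these were called, 3 up and 2 down in KO cells. Of all 10515 tested rows 65.2% were called, so a high share of calls is not particular to the members.

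The rest of the pathway was read from a list of 79 genes in 11 roles that contains the 10 members. Of these, 71 had a row of their own, counting Maml2 and Ep300, whose rows each also carry 1 gene known only by a clone name. Of the 71, 54 passed the filter. The list's Egfl7 and Numbl shared rows with other genes and were left out, and Poglut1, Aph1b, Aph1c, Psenen and Myc were not analysed here. Over the list, 23 genes were higher and 15 lower in KO, or 70.4% of those tested, close to the 65.2% of all rows. The median log2 fold change was 0.09 over the list and -0.07 over all tested rows. Without the 10 members it was 33 of 48 genes, 20 higher and 13 lower.

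Among non-canonical ligands, Dlk1 was far more abundant than any canonical ligand with a row. It fell from 1236 ± 134 to 717 ± 51.8 FPKM (log2 fold change -0.78, limma adjusted p = 0.000667). Mfap5, a microfibril protein that can bind Notch1, fell from 6.04 ± 1.16 to 3.52 ± 0.46 FPKM. The microfibril gene Mfap2 (4.46 ± 0.80 and 6.08 ± 0.45 FPKM) and the neuronal ligand gene Dner (0.259 ± 0.159 and 0.877 ± 0.420 FPKM) rose. All 4 tested non-canonical ligands thus passed, 2 in each direction, beside 65.2% of all tested rows. Dner passed the filter on low values only through its KO libraries, and the calls of Dner and Mfap2 were lost in several alternative fits. Dlk2 was listed at 0 in all libraries but KO replicate 3, where it stood at 1.45 FPKM.

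Of 7 tested genes of receptor cleavage 3 rose, 1 fell and 3 did not pass, so 57.1% were called, beside 65.2% of all tested rows. The 1 that fell is not reported here. Adam10, which makes the first cut after ligand binding, rose from 19.7 ± 0.59 to 32.1 ± 3.41 FPKM (log2 fold change 0.69, limma adjusted p = 0.000585), Adam17, a related protease, from 24.2 ± 0.95 to 30.2 ± 0.40, and Furin, which cuts the receptor on its way to the surface, from 29.8 ± 1.53 to 34.9 ± 1.21. Psen2, which encodes a presenilin, stood at 4.88 ± 0.20 and 4.97 ± 0.60 FPKM (limma adjusted p = 0.861). The gamma-secretase subunit genes Ncstn and Aph1a did not pass (adjusted p of 0.961 and 0.425). Under quantile normalization both passed, with log2 fold changes of 0.14 and 0.28 (limma adjusted p of 0.0191 and 0.0265). Of the glycosyltransferase genes that modify the receptor, Pofut1, Lfng and Rfng were tested and none passed (limma adjusted p from 0.203 to 0.858, and 0 of the 3 at an unadjusted p of 0.05).

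Of 3 tested genes for ubiquitin ligases that act on the ligands, 1 rose and 2 fell. Of 9 tested genes of receptor turnover and trafficking, a role that holds ligases, an adaptor and a kinase, 4 rose and 2 fell. Called shares of these roles were 100% and 66.7%, beside 65.2% of all tested rows. Mib1, the main ligand-directed ligase, rose from 8.41 ± 0.37 to 11.3 ± 1.011 FPKM, while its relative Mib2 fell from 16.4 ± 0.45 to 9.16 ± 1.30 and Neurl1a from 5.82 ± 0.44 to 3.39 ± 1.06. Neurl1b stood at 0.220, 0.157 and 0.167 FPKM in WT and was listed at 0 in KO. On the receptor side, Dtx4 rose 3.22-fold from 5.26 ± 0.88 to 16.9 ± 2.35 FPKM (log2 fold change 1.598, limma adjusted p = 0.000207). Fbxw7, which marks the freed intracellular part for destruction, rose from 2.03 ± 0.24 to 3.59 ± 0.41 FPKM, and Nedd4 from 295 ± 4.64 to 399 ± 29.0. Itch fell from 29.3 ± 1.24 to 15.2 ± 0.30 FPKM and the adaptor gene Numb, a Notch antagonist, from 8.30 ± 1.18 to 5.96 ± 0.85. Dtx1 was listed at 0 in WT and did not exceed 0.0986 FPKM in KO.

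In the nucleus, Rbpj was abundant in both groups, at 77.4 ± 2.41 FPKM in WT and 66.0 ± 5.11 in KO (log2 fold change -0.23, limma adjusted p = 0.0214). Its difference was near 0 under quantile normalization (adjusted p = 0.96). The Mastermind genes did not move as 1 group: Maml3 rose 2.92-fold from 1.44 ± 0.12 to 4.21 ± 0.27 FPKM (log2 fold change 1.28, limma adjusted p = 5.91e-05) and Maml2 from 1.96 ± 0.25 to 3.31 ± 0.46, while Maml1 fell from 14.6 ± 0.31 to 11.7 ± 0.54. The histone acetyltransferase gene Ep300 rose from 7.92 ± 0.14 to 13.4 ± 0.05 FPKM and the co-activator gene Snw1 fell from 164 ± 6.39 to 108 ± 5.67. The rows of Maml2 and Ep300 each also carry 1 gene known only by a clone name, so their reads may be shared. In all, 5 of 9 tested co-activator genes rose and 3 fell. Of 11 co-repressor genes 4 rose and 2 fell. Called shares were 88.9% of the tested co-activator and 54.5% of the co-repressor genes, beside 65.2% of all tested rows. Tle2, a Groucho-family co-repressor that HES proteins recruit, stood at 3.43, 3.68 and 2.97 FPKM in WT cells and at 21.4, 14.1 and 11.2 FPKM in KO (log2 fold change 2.01, limma adjusted p = 0.000559). Its relative Tle1 fell from 9.02 ± 0.82 to 5.16 ± 0.48 FPKM. Hdac1 rose from 10.8 ± 1.77 to 28.9 ± 3.28 FPKM and the demethylase gene Kdm5a fell from 18.5 ± 2.68 to 12.1 ± 2.27.

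Of the 9 HES and HEY genes only Hes1 and Hes6 passed the filter. Hes6, an atypical family member known to antagonise Hes1, was the most abundant, at 11.2, 11.6 and 13.3 FPKM in WT and 9.84, 9.47 and 10.2 FPKM in KO (log2 fold change -0.28, limma adjusted p = 0.0204). Hes2 and Hes3 were listed at 0 in WT and did not exceed 0.0313 FPKM in KO. Hes5 and Hey2, like Heyl, were at 0 in all 6 libraries, as was the feedback gene Nrarp. Ccnd1, a cyclin gene that Notch can raise in some cells, rose from 17.7 ± 0.45 to 29.8 ± 2.85 FPKM (limma adjusted p = 0.000352).

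**Figure D4:**
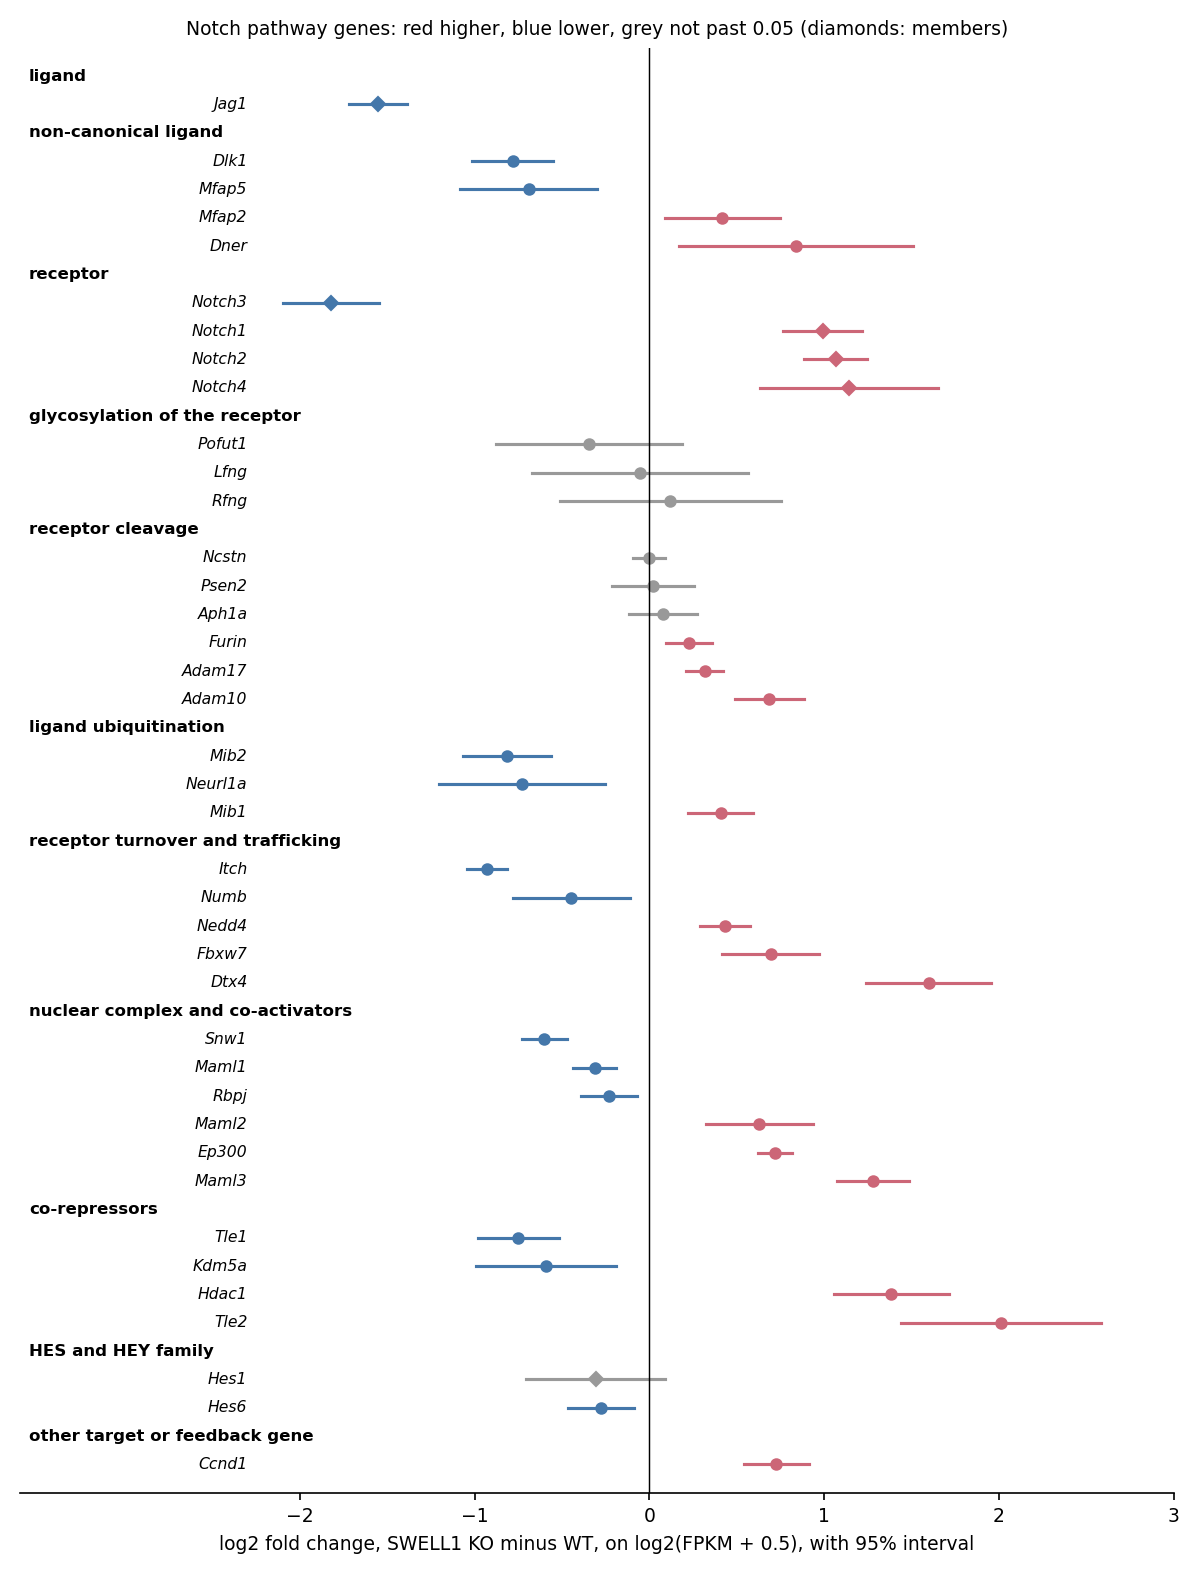
Log2 fold change (horizontal axis, KO minus WT on log2(FPKM + 0.5), with 95% interval) of the tested pathway genes named in the text, grouped by role, with diamonds for members. Red marks 18 genes higher, blue 14 lower and grey 7 not past an adjusted p of 0.05; receptors, co-activators, co-repressors and ligand ubiquitination each hold genes in both directions.

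Several of these calls were lost when 1 library was left out and 2 remained in its group. Dner lost its call when WT replicate 2, WT replicate 3 or KO replicate 1 was left out (log2 fold change 0.71 to 0.89, limma adjusted p from 0.0687 to 0.101), Mfap2 without any 1 of the KO replicates (0.36 to 0.45, adjusted p from 0.0624 to 0.104) and Neurl1a without WT replicate 3 or KO replicate 2 (-0.68 and -0.66, adjusted p of 0.0555 and 0.0558). Numb lost its call when replicate 1 or 2 of WT, or 2 or 3 of KO, was left out (log2 fold change -0.49 to -0.34, limma adjusted p from 0.0504 to 0.0718), Kdm5a without the same 4 libraries (-0.55 to -0.51, adjusted p from 0.0601 to 0.0626), Rbpj without WT replicate 1 or 2 (-0.23 and -0.21, adjusted p of 0.0591 and 0.0667) and Hes6 without KO replicate 1 or 2 (-0.28 and -0.25, adjusted p of 0.0528 and 0.0658). Under median-ratio scaling Numb, Rbpj and Hes6 also lost their calls (limma adjusted p of 0.0593, 0.0895 and 0.0605). Dner lost its call under quantile normalization and with a replicate block (limma adjusted p of 0.0816 and 0.0759), and Mfap2 with no filter on low values (0.0574). The calls of Notch1, Notch2, Notch3, Notch4 and Jag1 were kept in each of these fits that left out 1 library.

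Markers of the labelled cell type and of others were read beside these values. The 5 preadipocyte and stromal markers with a row of their own summed to 2469 to 3018 FPKM in WT and 1572 to 1729 in KO. Most of each sum was Dlk1 and Col1a1, and these, Pdgfra and Thy1 were each lower in KO. Cd34 went the other way, at 0.180 to 0.261 FPKM in WT and 0.494 to 0.611 in KO. Ly6a, on a row shared with Ly6c1, Ly6c2 and Ly6i, was also higher, at 584 to 689 FPKM in WT and 947 to 999 in KO. The 7 adipocyte markers summed to 137 to 195 FPKM in WT and 2.71 to 4.63 in KO. Nearly all of that was Fabp4, a fatty acid carrier, at 188, 156 and 133 FPKM in WT and 2.45, 3.48 and 4.37 in KO. Pparg, Adipoq and Plin1 were also lower in KO (log2 fold change -1.85, -1.99 and -1.31, limma adjusted p of 0.00136, 0.000108 and 0.00263). Cebpa and Cfd stood at 0.111 to 0.157 and 0.729 to 0.955 FPKM in WT and were listed at 0 in KO. Lep was listed at 0 in all 6 libraries. The 4 blood cell markers summed to 1.29 to 1.64 FPKM in WT and 0.115 to 0.327 in KO. In WT that was all Lyz2, and Csf1r was at 0 in all 6 libraries. The 4 epithelial markers summed to at most 0.0449 FPKM in WT and 1.25 to 1.54 in KO. Nearly all of the KO sum was Krt8 (1.17 to 1.49 FPKM), while Krt18 did not exceed 0.0449 FPKM, Cdh1 did not exceed 0.0860 FPKM and Epcam was at 0 in all 6 libraries. Beside the rise of Notch4, the summed level of 8 endothelial markers was 0.586 to 0.680 FPKM in WT and 2.14 to 2.65 in KO. Most of that KO sum was Vwf (1.69 to 1.72 FPKM). Cdh5 was also higher, at 0.0145, 0 and 0 FPKM in WT and 0.325, 0.298 and 0.271 in KO. For Pecam1, Tie1 and Dll4 the groups overlapped. Emcn was at 0 in all 6 libraries, and Kdr and Tek did not exceed 0.0124 FPKM. Beside the fall of Notch3, the 6 smooth muscle and pericyte markers with a row of their own summed to 95.7 to 109 FPKM in WT and 43.0 to 44.6 in KO. Within that list Acta2 stood at 67.7, 76.9 and 79.4 FPKM in WT and 1.73, 1.595 and 2.32 in KO. Besides Acta2, only Cnn1 was lower in every KO library than in any WT library, and it did not exceed 0.351 FPKM. Pdgfrb was higher in KO, at 27.6 to 31.0 FPKM in WT and 40.8 to 42.1 in KO. Rgs5 and Cspg4 were listed at 0 in WT. In KO Rgs5 stood at 0.269, 0.0467 and 0.0659 FPKM, and Cspg4 at 0.0131 to 0.0189. Myh11 did not exceed 0.0998 FPKM, and its groups overlapped. Dll4 and Dlk1 stand in both a marker list and the pathway list. The part of these markers in the receptor values was not tested.

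Each row's 6 values of log2(FPKM + 0.5) were taken relative to their own mean. The rows nearest to 3 members were then found by Euclidean distance over the 6 libraries. For Notch2 they included Emilin1 (distance 0.083) and Imp4 (0.097). For Notch3 they were Stambpl1 (0.153), Sptlc2 (0.156) and Egln1 (0.171). For Jag1 they were Erc1 (0.094), Ikzf2 (0.095) and Ptp4a3 (0.108). With 2 groups of 3 libraries, this likeness is mostly a like difference between the groups.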

How the data were processed

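Total RNA was sequenced from 3 WT and 3 SWELL1 KO libraries of 3T3-F442A cells. Per the submitters' processing notes, the reads were processed with TopHat and Cufflinks 2.02 on GRCm38. The deposited values are taken as FPKM by inference, since no label or header names their unit. Annotation release and settings: not given in the sources used here. No scaling was added to the deposited FPKM. The test was limma 3.58.1 (R 4.3.3), with its trend option and two-sided, applied to log2(FPKM + 0.5) of every row averaging 0.5 FPKM or more. P-values were Benjamini-Hochberg adjusted over those rows and the threshold was 0.05. Positions are from GENCODE M21 (GRCm38). Fragments behind a value were estimated from its FPKM, the spliced length and the estimated depth.

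The members, the pathway and marker lists and the rule for named genes were chosen with earlier results of these data known. Named genes were all members, up to 3 increases and 3 decreases per role, listed genes at 0 in all libraries of 1 group only, and the 3 nearest single-gene rows to Notch2, Notch3 and Jag1. Other genes (such as Psen2, Ncstn and untested ligands) were named after their values were seen, and 3 genes that the rule selects are not reported here. The fit was tested on simulated data before use. Alternatives were other pseudocounts, filters and scalings, a robust fit, a replicate block and leaving out each library. Tables and plots were made in Python 3.11.15 (pandas 2.3.3, matplotlib 3.10.9).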

Additional observations from a re-analysis of the deposited data

How the results depend on the processing

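Notch1, Notch2, Notch3 and Jag1 kept their direction and their call under all 14 alternatives, and Notch4 under the 13 that tested it, since a filter of 1 FPKM removes it. Log2 fold changes ran from 0.79 to 1.25 for Notch1, 1.00 to 1.14 for Notch2, -2.51 to -1.38 for Notch3, 0.76 to 2.04 for Notch4 and -1.69 to -1.42 for Jag1. The smaller sizes came with a pseudocount of 1 and, except for Notch2 under median-ratio scaling, the larger ones with 0.1. Hes1 stayed below 0 and did not pass in the 12 alternatives that tested it (adjusted p from 0.0546 to 0.312); without WT replicate 2, or with the filter of 1 FPKM, it was not tested. The difference in the Notch2 share of receptor FPKM was 17.6 percentage points and 19.5 under quantile normalization. Of the 38 called pathway genes 29 kept call and direction in every alternative that tested them and 9 lost the call in at least 1. Counts in the pathway list ran from 20 to 25 higher and from 11 to 17 lower. Over all rows, 43.7% of calls were higher in KO as deposited and 50.4% under quantile normalization, where the median moved by less than 0.1. The labels give both groups replicate numbers 1 to 3. Deviations of same-numbered libraries from their group means correlated at 0.003, 0.012 and -0.093. No effect shared by same-numbered libraries was thus seen, but these values cannot tell whether such libraries were prepared together. With a replicate block the log2 fold change of Notch3 was -1.82 (limma adjusted p = 0.00111), and 2846 rows were higher and 3688 lower, against 2998 and 3862. The values of Dll1, Hey1 and Hes1 rest on few fragments, about 41 at most in a library, so differences in these genes are limited by depth.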
